A study of Rattus norvegicus with 5 samples.

Results

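Annexins and S100 proteins were followed through 8 genes that are often counted among the genes of reactive glia: Anxa1, Anxa2, Anxa3, Anxa5, Anxa6, S100a10, S100b and S100a4. Every probe set annotated with 1 of these symbols was taken, without regard to its values, which gave 13 probe sets for 8 of the 4736 genes that the annotation names on the array. Of the 13, 11 passed the filter on dim signals and were tested, and each of the 8 genes had at least 1 among them. The cells were retinal Müller cells, the radial glia that span the retina, from male Sprague-Dawley rats. The diabetic group was 2 arrays of cells from the pooled retinas of 12 rats, 6 months after diabetes was induced with streptozotocin, a toxin of insulin-producing cells, with small doses of insulin given against catabolism. The normal group was 3 arrays, each with cells from a pool of 12 healthy rats. The second diabetic array is described as a technical replicate, and its deposited record as a second run, so both diabetic arrays were averaged on the log2 scale and counted as 1 pool. All spread in the tests therefore comes from the 3 normal pools, and no value measures how diabetic pools differ from each other. The test, limma's, draws the spread of each probe set toward that of probe sets with similar signal. A standard error (SE) given below is therefore not the spread of that gene alone.

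Annexins are proteins that attach to acidic phospholipids of cell membranes when calcium rises, and they take part in vesicle traffic, membrane repair and the limiting of inflammation. S100 proteins are small calcium sensors with EF-hand motifs that pair up and dock onto target proteins, among them annexins. Annexin A2 and S100A10 form a complex at the plasma membrane that gathers plasminogen and its activator. In the retina S100B is known as a protein of Müller cells and astrocytes, and a rise of annexins and S100 proteins is a known part of the glial response to injury.

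Anxa1, Anxa2, S100a10 and Anxa5 had a higher signal on both diabetic arrays than on any of the 3 normal arrays, with differences of 0.62 to 1.11 on the log2 scale, and none of the 8 genes had a lower one on both. In each of the other genes, Anxa3, Anxa6, S100b and S100a4, the diabetic arrays overlapped the normal range. Each gene is represented here by its brightest tested probe set. No single difference passed limma's test after adjustment over all probe sets, where 0.00% of the 6118 tested probe sets had an adjusted p under 0.05. Of the 11 tested probe sets of these genes 0 had an unadjusted p under 0.05, against 98, or 1.60%, of all tested probe sets. The 4 genes without overlap stand beside 9.83% of the 3623 tested genes with both diabetic arrays above the normal ones and 7.01% with both below. As single probe sets, 5 of the 11 lay above, beside 9.53% of all tested probe sets above and 7.01% below. The genes were chosen with earlier results of these arrays known, so these counts describe them and test nothing.

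**Figure D1:**
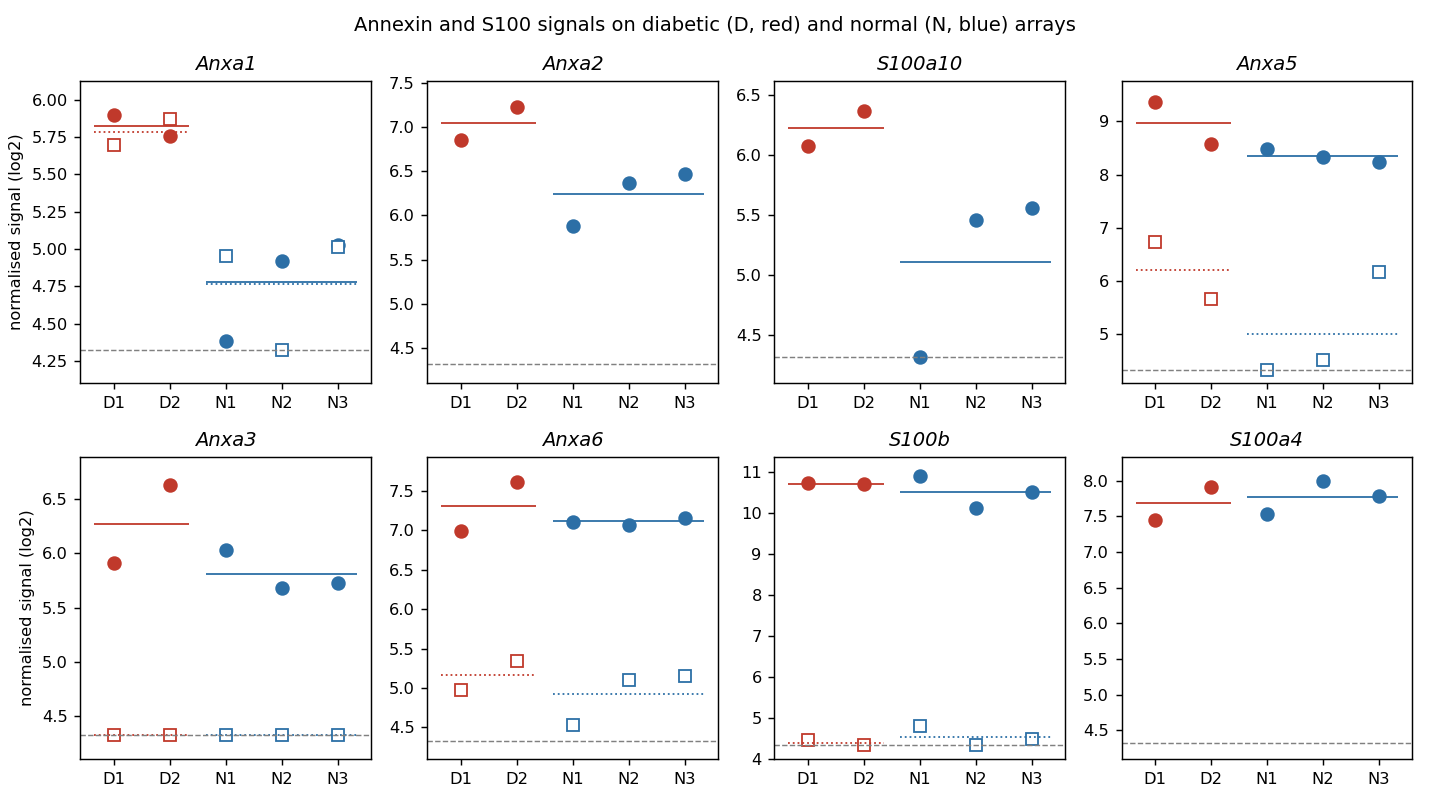
Normalised signal (log2) of the 8 genes on the 2 diabetic arrays (D1 and D2, red) and the 3 normal arrays (N1 to N3, blue). Filled circles are the brightest probe set of a gene, open squares its other probe set, horizontal lines the group means (solid and dotted for the same probe sets) and the dashed grey line the floor of 20. The red circles lie above every blue circle for Anxa1, Anxa2, S100a10 and Anxa5, and not for Anxa3, Anxa6, S100b and S100a4.

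The promoters of 6 of the 8 genes were found in the RefSeq table of rat assembly GRCr8, from 250 bases before to 50 bases after the gene's start; Anxa6 and S100a10 were not among them. Shown are 3 genes whose diabetic arrays lay above normal (Anxa1 at chr1:227303683-227303982, minus strand; Anxa2 at chr8:78986002-78986301, plus strand; Anxa5 at chr2:121272647-121272946, minus strand) and, for contrast, S100a4 at chr2:178388279-178388578, plus strand, which overlapped. Each is written 5′ to 3′ on the gene's strand. Capitals mark matches to 4 motifs searched on both strands, namely the TATA box TATAAA, the GC box GGGCGG, the AP-1 motif TGANTCA and the STAT motif TTCNNNGAA.
Anxa1: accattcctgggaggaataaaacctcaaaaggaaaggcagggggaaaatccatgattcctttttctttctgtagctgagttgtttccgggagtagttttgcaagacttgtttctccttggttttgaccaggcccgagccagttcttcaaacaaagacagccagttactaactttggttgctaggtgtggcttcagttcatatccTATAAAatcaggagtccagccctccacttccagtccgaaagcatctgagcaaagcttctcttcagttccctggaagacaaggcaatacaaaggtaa
Anxa2: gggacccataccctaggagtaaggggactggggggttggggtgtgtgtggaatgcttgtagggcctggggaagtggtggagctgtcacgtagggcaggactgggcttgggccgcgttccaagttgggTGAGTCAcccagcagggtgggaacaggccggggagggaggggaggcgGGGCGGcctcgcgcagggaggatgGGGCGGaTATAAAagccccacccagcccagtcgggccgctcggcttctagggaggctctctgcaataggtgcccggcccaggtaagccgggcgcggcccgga
Anxa5: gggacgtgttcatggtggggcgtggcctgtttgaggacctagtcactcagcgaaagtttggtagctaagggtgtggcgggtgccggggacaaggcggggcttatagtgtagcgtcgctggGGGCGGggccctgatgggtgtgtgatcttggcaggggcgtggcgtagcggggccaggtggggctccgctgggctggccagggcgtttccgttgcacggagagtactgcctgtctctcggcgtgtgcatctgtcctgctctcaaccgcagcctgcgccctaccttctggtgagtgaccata
S100a4: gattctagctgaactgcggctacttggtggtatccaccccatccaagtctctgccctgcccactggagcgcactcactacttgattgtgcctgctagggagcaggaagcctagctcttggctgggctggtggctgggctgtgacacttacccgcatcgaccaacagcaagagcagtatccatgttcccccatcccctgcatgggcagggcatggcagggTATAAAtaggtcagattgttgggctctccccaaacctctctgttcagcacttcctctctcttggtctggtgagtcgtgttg

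The TATA box letters began 46 bases before the start in Anxa1, 45 in Anxa2 and 31 in S100a4, and 14.2% of all 33469 promoters in the table hold them somewhere in the window. Anxa2 held TGAGTCA, a match to the AP-1 motif that 7.33% of the promoters hold, beginning 123 bases before the start. GC box letters, held by 33.1% of the promoters, lay in Anxa2 at 2 positions (76 and 52 bases before the start), in Anxa5 at 1 (130 bases) and in Anxa3 at 3. No letters of the STAT motif, held by 8.87%, were found in the 6 windows, and the window of S100b held none of the 4 motifs. These matches describe the letters of the windows only.

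Anxa1 encodes annexin A1, a protein induced by glucocorticoids that dampens the recruitment of leukocytes through formyl peptide receptors. Its probe set S57478cds_s_at had a normalised signal of 59.6 and 54.0 on the diabetic arrays, against 20.8, 30.3 and 32.6 on the normal arrays. Both diabetic arrays were above every normal array, and the dimmest normal array was close to the floor of 20 that was set for all signals. The log2 difference was 1.05 (SE 0.52, 95% interval -0.24 to 2.34, 3 normal pools and 1 diabetic pool), or 2.07 times the normal level, with limma's unadjusted p = 0.0927. Its other probe set, rc_AI171962_s_at, gave 51.8 and 58.6 on the diabetic arrays, against 30.9, 20 and 32.3 on the normal arrays. That probe set likewise kept the groups apart, with a log2 difference of 1.02 (SE 0.53), although normal array 2, the dimmest here and at the floor, was not the dimmest in the first probe set. With the floor lowered to 10, the first probe set kept its difference of 1.05 and the other gave 1.21.

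Anxa2 encodes annexin A2, the membrane-bound partner of S100A10. Its only probe set, L13039_s_at, had a normalised signal of 116 and 150 on the diabetic arrays, against 59, 82.3 and 88.8 on the normal arrays. The groups did not overlap, and all 5 signals were well over the floor. Anxa2 thus differed by 0.80 on the log2 scale (SE 0.46, 95% interval -0.35 to 1.96), or 1.74 times normal, with limma's unadjusted p = 0.137. The names of this probe set and of several others end in _s_at, a suffix that marks probes able to match more than 1 related sequence, so related transcripts may add to their signals.

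S100a10 encodes the partner of annexin A2, also called p11, a member of the S100 family that has lost calcium binding. Its probe set J03627_at had a normalised signal of 67.6 and 82.4 on the diabetic arrays, against 20, 43.9 and 47.1 on the normal arrays. The lowest diabetic array lay above the highest normal array, and normal array 1 was at the floor. The log2 difference of 1.11 was the highest among the brightest probe sets of the 8 genes (SE 0.66, 95% interval -0.54 to 2.76), or 2.16 times normal, with limma's unadjusted p = 0.148. Without normal array 1 it was 0.73, over 1.5 times smaller. Both partners of the annexin A2 complex had their lowest signal on normal array 1 and their highest on diabetic array 2.

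Anxa5 encodes annexin A5, which binds phosphatidylserine on the surface of dying cells and is widely used to stain them. The brightest probe set, D42137exon_s_at, had a normalised signal of 656 and 382 on the diabetic arrays, against 358, 323 and 300 on the normal arrays. Diabetic array 2 cleared the highest normal array by little, while diabetic array 1 stood far above all the others. The log2 difference was 0.62 (SE 0.27, 95% interval -0.06 to 1.3), or 1.53 times normal, and its unadjusted p of 0.0673 was limma's lowest among the 11 probe sets. With diabetic array 1 left out it was 0.23, and with diabetic array 2 left out 1.02, so the size rests on which of the repeated arrays is used. Its dimmer probe set, AF051895_at, gave 106 and 50.6 on the diabetic arrays, against 20, 22.7 and 71.6 on the normal arrays. There the groups overlapped, because normal array 3 lay above diabetic array 2, and the log2 difference of 1.2 had an SE of 0.84. For this probe set it was 0.66 with diabetic array 1 left out and 1.73 with diabetic array 2 left out.

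Anxa3 encodes annexin A3, an annexin abundant in neutrophils. Its probe set AA850219_at had a normalised signal of 60.3 and 99.0 on the diabetic arrays, against 65.5, 51.2 and 52.9 on the normal arrays. Only diabetic array 2 stood above the normal arrays, and diabetic array 1 lay among them. The log2 difference was 0.46 (SE 0.46, 95% interval -0.70 to 1.62). Leaving out diabetic array 2 gave 0.10, and leaving out diabetic array 1 gave 0.81. The second probe set, rc_AI639072_at, was at the floor on all 5 arrays and was not tested.

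Anxa6 encodes annexin A6, the large member of the family with a duplicated core, which binds membranes and the actin cytoskeleton. Its brighter probe set X86086_g_at had a normalised signal of 127 and 196 on the diabetic arrays, against 138, 135 and 143 on the normal arrays. The diabetic arrays lay on either side of a narrow normal range. The log2 difference was 0.19 (SE 0.34, 95% interval -0.66 to 1.05), and it turned to -0.12 when diabetic array 2 was left out, against 0.51 when diabetic array 1 was. The dimmer probe set X86086_at gave 31.4 and 40.6 on the diabetic arrays, against 23.2, 34.2 and 35.7 on the normal arrays, with a log2 difference of 0.23 (SE 0.51) and overlap. It lay between 0.035 without normal array 1 and 0.41 without diabetic array 1, and was 0.045 without diabetic array 2.

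S100b encodes S100B, the classical S100 protein of glia, which buffers and senses calcium and is also secreted. Its probe set S53527mRNA_s_at had a normalised signal of 1691 and 1658 on the diabetic arrays, against 1896, 1107 and 1460 on the normal arrays. The diabetic arrays were nearly equal to each other and lay inside the normal range. On the log2 scale S100b differed by 0.20 (SE 0.35, 95% interval -0.66 to 1.07). It was 0.01 without normal array 2, the lowest of the 5, and 0.40 without normal array 1, the highest. The second probe set, rc_AI146214_at, was dim, with 21.9 and 20 on the diabetic arrays and 27.9, 20 and 22.1 on the normal arrays, and was not tested.

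S100a4 encodes S100A4, a protein that binds non-muscle myosin and is known from motile cells and fibroblasts. Its probe set X06916_at had a normalised signal of 175 and 240 on the diabetic arrays, against 185, 256 and 219 on the normal arrays. Diabetic array 1 was the lowest of all 5, and diabetic array 2 lay inside the normal range. The log2 difference was -0.09 (SE 0.34, 95% interval -0.93 to 0.75), the only negative one among the 11 tested probe sets. It turned to 0.14 without diabetic array 1 and to 0.03 without normal array 2, and was -0.32 without diabetic array 2 and -0.21 without normal array 1.

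**Figure D2:**
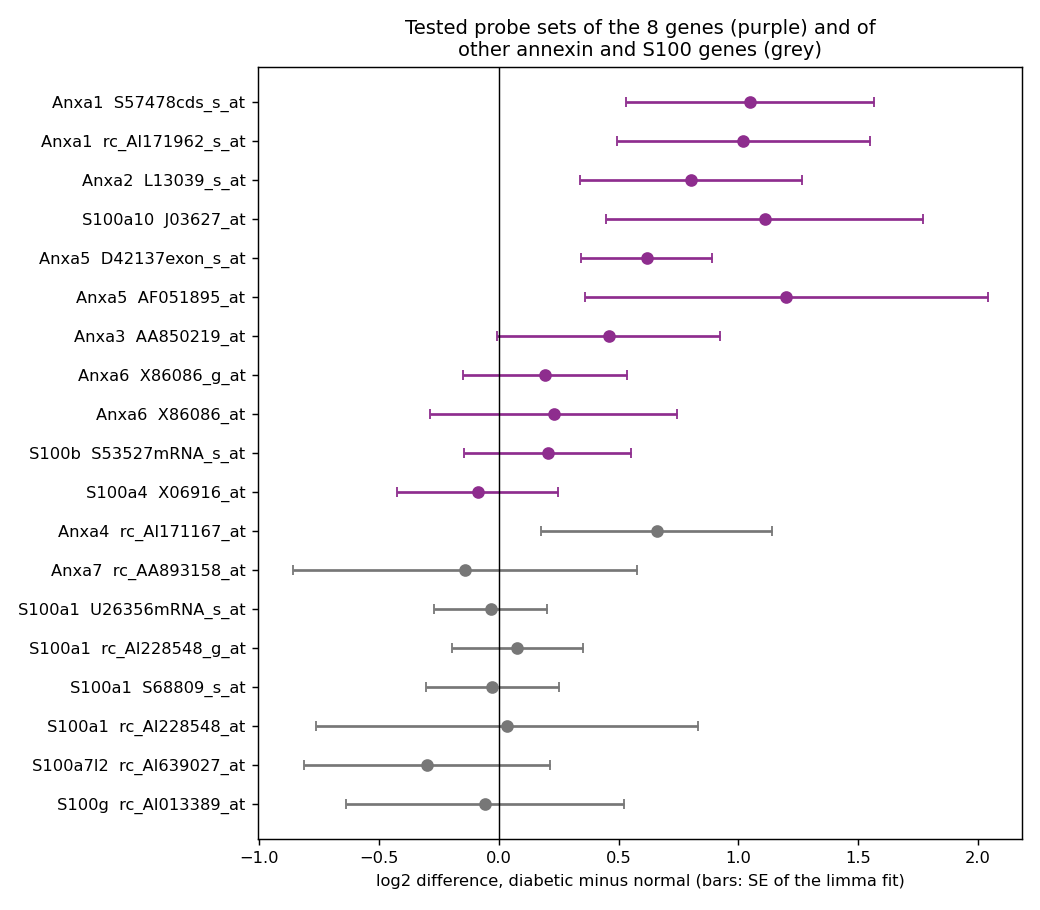
Log2 difference, diabetic minus normal, of each tested probe set of the 8 genes (purple) and of other annexin and S100 genes (grey), with bars of 1 SE from the limma fit. The probe sets of Anxa1, Anxa2, S100a10 and Anxa5 lie between 0.62 and 1.2, and those of S100a1 between -0.03 and 0.08.

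The 8 genes had a median log2 difference of 0.54, with 7 above and 1 below 0, beside a median of -0.01 over all 3623 tested genes, of which 49.2% were above 0. Counting single probe sets, 112 of the 6118 had a higher difference than the brighter one of Anxa1, 95 a higher one than S100a10 and 263 a higher one than Anxa2. The brighter probe set of Anxa5 was exceeded by 437, that of Anxa3 by 709 and S100a4 by 3654. The genes with the larger differences thus lay in the upper tail of the arrays but not at its end.

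**Figure D3:**
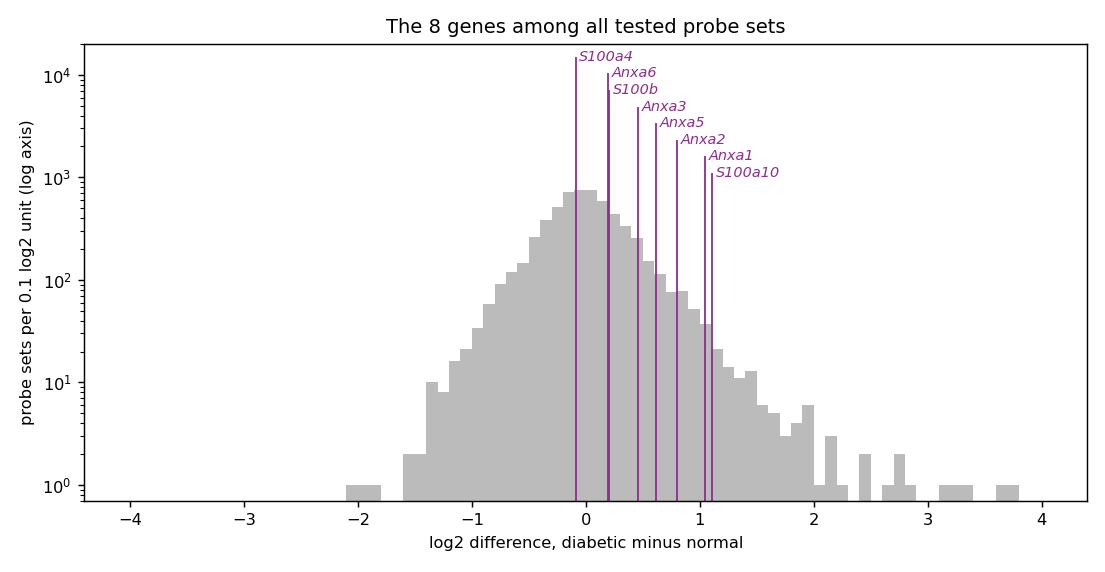
Histogram of the log2 difference, diabetic minus normal, over the 6118 tested probe sets (bins of 0.1, log axis of counts), with purple lines at the brightest probe set of each of the 8 genes. S100a10 and Anxa1 lie at 1.11 and 1.05 in the upper tail, and S100a4 at -0.09 lies near the middle.

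Across the 5 arrays Anxa1, Anxa2 and S100a10 had similar patterns. Likeness was measured as the root mean square difference of log2 signals after each gene was centred on its own mean. It was 0.20 between Anxa1 and Anxa2, 0.26 between Anxa1 and S100a10 and 0.28 between Anxa2 and S100a10. Only 10 of the tested genes were closer to Anxa1 than Anxa2 was, and 30 closer than S100a10, but 122 were closer to Anxa2 than S100a10 was. Anxa5 was farther from all of them, at 0.42 from Anxa1, 0.47 from Anxa2 and 0.66 from S100a10. By the value alone, such closeness was not particular to Anxa1, Anxa2 and S100a10. Anxa3 and Anxa6, at 0.18, were closer than any pair of those genes, but 55 genes were closer to Anxa3 than Anxa6 was. Anxa6 and S100a4 were at 0.22, with 434 genes closer to Anxa6 than S100a4 was. Genes that vary little are close by this measure. Over the 5 arrays Anxa3, Anxa6 and S100a4 spanned 0.95, 0.62 and 0.55 on the log2 scale. Anxa1, Anxa2 and S100a10 spanned 1.5, 1.3 and 2.0. Over all tested genes the nearest to Anxa1 were Fzd1 (0.11) and Prlr (0.15), to Anxa2 Prlr (0.06) and Csf1 (0.10), to S100a10 Cavin3 (0.13) and Cspg4 (0.18), and to Anxa5 Nktr (0.10) and Scarb1 (0.11). These are descriptions over 5 arrays, of which the diabetic ones share a pool, with no test.

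The repeated diabetic arrays also parted from each other, by amounts that the SE does not include. Diabetic array 2 minus diabetic array 1 was -0.14 on the log2 scale for the brighter probe set of Anxa1, 0.37 for Anxa2, 0.28 for S100a10 and -0.03 for S100b, against a median size of 0.36 over all tested probe sets. It was -0.78 for Anxa5, 0.71 for Anxa3 and 0.62 for Anxa6, more than the spread of 0.25, 0.36 and 0.09 among the 3 normal pools. For these 3 genes the repeat of 1 pool varied more than separate pools of normal rats did. The normal pools spread more for the brighter probe set of Anxa1 (0.65), Anxa2 (0.59), S100a10 (1.24) and S100b (0.78). Their median spread over all tested probe sets was 0.70. For S100a4 the diabetic arrays parted by 0.46 and the normal pools by 0.47.

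Facts of the arrays bear on these values. The median deposited signal ran from 27.9 to 91.3 per array, and the arrays were brought to a common distribution before any comparison. RNA integrity, read from actin probe sets at the 3' and 5' ends of the message as their ratio, was 1.76 and 2.55 on the diabetic arrays, against 2.61, 1.52 and 1.46 on the normal arrays. The pair with a high ratio was normal array 1, the lowest for Anxa2 and S100a10, and diabetic array 2, the highest for both. The 3 arrays with a low ratio were diabetic array 1 and normal arrays 2 and 3. On them the log2 difference was 0.97 for Anxa1, 0.45 for Anxa2, 0.60 for S100a10 and 1.10 for Anxa5. Anxa3 gave 0.23, Anxa6 -0.12, S100b 0.39 and S100a4 -0.45. Diabetic array 2 and normal array 3 shared a hybridisation day and a chip lot. Between those arrays, a comparison of 1 array with 1 and so with no test, the difference was 0.73 for Anxa1, 0.75 for Anxa2, 0.81 for S100a10 and 0.35 for Anxa5, but -0.50 for the dimmer probe set of Anxa5. It was 0.90 for Anxa3, 0.46 for Anxa6, 0.18 for S100b and 0.13 for S100a4. The part of RNA integrity in these results was not tested.

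**Figure D4:**
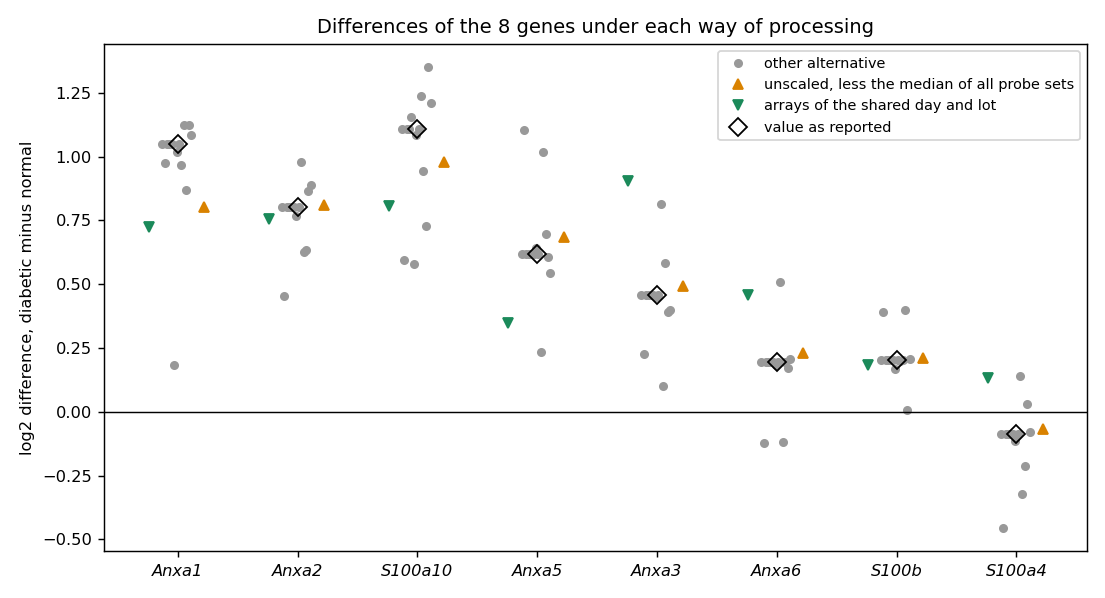
Log2 difference, diabetic minus normal, of the brightest probe set of each gene as reported (open diamonds) and under each alternative way of processing (grey points), with the arrays of the shared day and lot in green and the unscaled values, less the median of all tested probe sets, in orange. All points lie above 0 for Anxa1, Anxa2, S100a10, Anxa5, Anxa3 and S100b, and on both sides of 0 for Anxa6 and S100a4.

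Of the other annexin and S100 genes on a list of 21, 6 had a probe set with 1 symbol and 4 were tested. Anxa4, an annexin of epithelia, had a normalised signal of 36.8 and 36.3 on the diabetic arrays, against 27.9, 22.2 and 20 on the normal arrays. It was the only gene of the list without overlap, with a log2 difference of 0.66 (SE 0.48) at signals close to the floor. Of all tested genes 9.83% had both diabetic arrays above the normal ones and 7.01% both below. The mean log2 signal of Anxa4 was 5.19 on the diabetic arrays and 4.53 on the normal arrays. It passed the filter on dim signals only through the diabetic arrays, so its lack of overlap tests nothing. S100a1, a calcium sensor known best from muscle and also made in the nervous system, was bright and nearly level. Its brightest probe set had 810 and 850 on the diabetic arrays, against 843, 799 and 908 on the normal arrays, with a log2 difference of -0.03 (SE 0.24, 95% interval -0.62 to 0.56), and its 3 other probe sets differed by -0.03, 0.04 and 0.08. Anxa7, an annexin of secretory granules, differed by -0.14 (SE 0.72), with 32.3 and 28.5 on the diabetic arrays against 60.0, 20 and 31.2 on the normal arrays. S100g, the vitamin D-dependent calcium-binding protein of the intestine, differed by -0.06 (SE 0.58). S100a8 and S100a9, whose products form the neutrophil protein calprotectin, stayed at the floor of 20 on both diabetic arrays and reached 24.2 and 20.1 on normal array 1, and neither was tested. S100a7l2, which is on the array but not on the list and was chosen after its values were seen, differed by -0.30 (SE 0.51).

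Partners, ligands and receptors of these proteins were measured thinly. Of 19 genes 12 were on the array and 5 were tested, with 4 above and 1 below 0, a median log2 difference of 0.10 and 0 past limma's threshold (0 also at an unadjusted p under 0.05). Plat, the tissue plasminogen activator that the annexin A2 complex binds, differed by 0.40 (SE 0.43), with 243 and 298 on the diabetic arrays against 163, 179 and 290 on the normal arrays. Leaving out normal array 1 gave 0.25, leaving out diabetic array 2 gave 0.26 and leaving out normal array 3 gave 0.64, while the arrays of the shared day and lot gave 0.042. Asic1, an acid-sensing ion channel, differed by 0.22 (SE 0.56), and Nr3c1, the glucocorticoid receptor, by 0.08 (SE 0.46), both with overlap. Plg, encoding plasminogen, was at the floor on all 5 arrays.

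Other genes for calcium-binding EF-hand proteins had mostly small negative differences. Of 11 tested genes 2 were above and 9 below 0, with a median of -0.13, 0 past limma's threshold and 0 at an unadjusted p under 0.05. Sparc, a matrix glycoprotein of glia with an EF-hand pair, differed by -0.30 (SE 0.23). Vsnl1, the neuronal calcium sensor visinin-like protein, differed by -0.44 (SE 0.47) with no overlap, at signals close to the floor. Its mean log2 signal was 4.52 on the diabetic arrays and 4.96 on the normal arrays, with the floor at 4.32. Vsnl1 passed the filter on dim signals only through the normal arrays, so its lack of overlap tests nothing. Both diabetic arrays lay below the normal ones in 7.01% of all tested genes and above them in 9.83%. Calb1, the calbindin of horizontal and other inner retinal neurons, differed by -0.35 (SE 1.05). The signs of Sparc and Calb1 are not firm. Sparc turned positive when diabetic array 2 was left out, and Calb1 when diabetic array 1 was. The sign of Vsnl1 did not turn under the alternatives, but its difference was 0 with a floor of 50.

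Of the other genes of reactive glia 11 of 13 were tested. Their median was 0.89, with 9 above and 2 below 0 and 6 of 11 without overlap. Of all tested genes 9.83% had both diabetic arrays above the normal ones and 7.01% both below. On the list 0 passed limma's threshold and 5 had an unadjusted p under 0.05, beside 1.60% of all tested probe sets. Serpina3n, a protease inhibitor of reactive astrocytes, had 564 and 627 on the diabetic arrays against 107, 130 and 101 on the normal arrays, a log2 difference of 2.41 (SE 0.35). Spp1, osteopontin, differed by 3.15 (SE 0.62), and Cp, the ferroxidase ceruloplasmin, by 1.69 (SE 0.30). Every annexin and S100 difference was smaller than these 3. This list was drawn up with its results on these arrays known, so its direction is no support for theirs.

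Markers of the labelled cells and of others that a retinal preparation can hold were compared too. Müller cell markers were strong, with 9 of 12 genes measured, all tested, and summed signals of 40551 and 41640 on the diabetic arrays, against 34779, 41165 and 46649 on the normal arrays. Their median log2 difference was -0.17, with 2 above and 7 below 0, and Vim is also on the list of reactive glia. Glul, the glutamine synthetase that defines these cells, had 8290 and 7984 on the diabetic arrays, against 7532, 9373 and 11797 on the normal arrays. Microglial and leukocyte markers, of which 11 of 16 were measured and 9 tested, summed to 2432.5 and 2727.0 on the diabetic arrays, against 1729.3, 2136.7 and 1866.6 on the normal arrays. Their median was 0.47, with 8 of 9 above 0 and 6 of 9 without overlap. Of all tested genes 9.83% had both diabetic arrays above the normal ones and 7.01% both below. Anxa1, Anxa2, Anxa3, Anxa5, S100a10 and S100a4 are all known from leukocytes too. Photoreceptor markers, of which 8 of 17 were measured and tested, summed to 12756 and 13582 on the diabetic arrays, against 10085, 9624 and 4282.6 on the normal arrays. They had a median of 0.82, with 8 of 8 above 0 and 5 of 8 without overlap. The 6 fibroblast markers summed to 338.5 and 361.3 on the diabetic arrays, against 486.9, 416.3 and 370.8 on the normal arrays, with a median of -0.29 over 4 tested. Endothelial and pericyte markers, 10 of 15 measured and 8 tested, summed to 2545.5 and 3037.1 on the diabetic arrays, against 3573.4, 2605.0 and 2736.3 on the normal arrays, with a median of -0.15. Inner retinal neuron markers had a median of -0.19 over 11 tested, those of astrocytes, myelinating glia and erythrocytes had medians of 0.07, 0.03 and 0.23 over 2 tested each, and Rpe65 of the pigment epithelium was at the floor on all 5 arrays. The part of each cell type in the annexin and S100 values was not tested, and in RNA of pooled cells fewer cells of a type cannot be told apart from less RNA per cell.

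**Figure D5:**
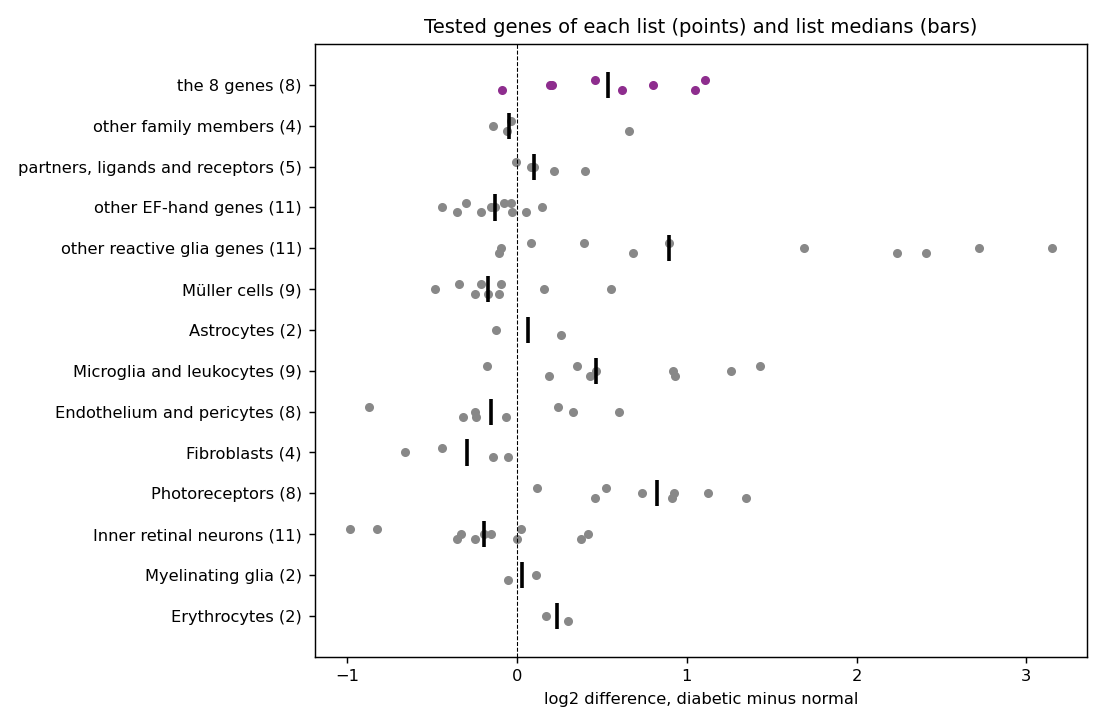
Log2 difference, diabetic minus normal, of each tested gene (points, spread vertically for legibility) in the 8 genes (purple), the related lists and the marker lists (grey), with list medians as black bars and the number of tested genes in brackets. The 8 genes centre on 0.54, microglial and leukocyte markers on 0.47, photoreceptor markers on 0.82 and other EF-hand genes on -0.13.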

How the data were processed

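The arrays were Affymetrix RG_U34A chips, per the file headers. The deposited values are linear intensities per probe set, none below 0, on scales that differed between arrays (2% trimmed means apart by 3.53 times); which summary algorithm and software the authors used was not given in the sources used here. Array records (deposited text, other than measurements) gave chip type, lot and day, and that of diabetic array 1 was empty beyond the chip type.

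Intensities of 8799 probe sets were quantile-normalised between arrays with limma 3.58.1 under R 4.3.3, floored at 20 and put on the log2 scale. Control probe sets and the 30% dimmest of the remaining 8740 were left out. The averaged diabetic arrays were compared with the 3 normal arrays over all 6118 tested probe sets by lmFit and eBayes with trend, two-sided, with Benjamini-Hochberg adjustment. Folds come from floored values, so those of genes with arrays at the floor depend on it. The fit step was also run on simulated data with the same spread for every probe set and only positive changes, unlike the arrays. No result here rests on that run.

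GEO's platform annotation gave 1 symbol to 7006 probe sets, several to 308 and none to 1426, and 6985 matched a RefSeq gene table of assembly GRCr8 with 0 symbols changed. Named genes were the 8 members, other family members on a list, the 3 genes with the largest moderated statistic of each of 3 related lists, and the 2 genes nearest in pattern to each member spanning over 1 log2 unit. The members, lists and tests were chosen with earlier results of these data known. Alternatives covered scaling, floor, filter, trend, separate arrays, leaving out each array, arrays with an actin ratio under 2, the shared day and the other probe sets. Figures were drawn with matplotlib 3.10.9. The number of arrays limits the precision.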

Additional observations from a re-analysis of the deposited data

How the results depend on the processing

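For the brightest probe set of each gene, differences of Anxa1, Anxa2, S100a10, Anxa5 and Anxa3 were above 0 under every alternative run, at 0.18 to 1.28 for Anxa1, 0.45 to 1.28 for Anxa2, 0.58 to 1.45 for S100a10, 0.23 to 1.16 for Anxa5 and 0.10 to 0.97 for Anxa3. Each upper end came from the unscaled values, where the median of all tested probe sets was itself 0.47. Less that median they were 0.80, 0.81, 0.98, 0.69 and 0.49, in the same order. When the filter left out the dimmest 50% of probe sets, all those of Anxa1 and S100a10 fell under it. Their differences there are the reported ones, with no test. Other probe sets went below 0 for Anxa5 (-0.50 within the shared day and lot) and, untested and dim, for Anxa3 (-0.48 with a floor of 10). No probe set of the 8 genes passed limma's adjusted threshold, except 3 with a floor of 50 (both of Anxa1 and that of S100a10), whose normal arrays then all sat at the floor with no spread between them. Over all probe sets there were 147 calls with that floor, 170 with no filter on dim probe sets and 13 with the 5 arrays as separate samples, and 0 under the other alternatives tested, against 0 as reported. The 4 genes without overlap became 2 (Anxa1 and S100a10) with the deposited values unscaled, where 8.71% of all tested probe sets had no overlap, against 16.5% as reported. They became 8 (6 above, 2 below) on the low-ratio arrays, the 3 with an actin ratio under 2, where 69.0% had none. Leaving out single arrays gave 4 to 6, beside 26.1% to 44.3% of all tested probe sets, and without diabetic array 2 the 6 included Anxa6 and S100a4 below normal.

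Signs turned for small differences, and the cause was not tested. Leaving out 1 array at a time gave -0.32 to 0.14 for S100a4, -0.12 to 0.51 for Anxa6, -0.075 to 0.013 for S100a1, -0.34 to 0.19 for S100g, -0.51 to 0.32 for Anxa7, -0.050 to 0.56 for Asic1, -0.032 to 0.15 for Nr3c1, -0.74 to 0.16 for Sparc and -0.97 to 0.37 for Calb1. Unscaled values moved the median of all tested probe sets to 0.47, so S100a4 became 0.40, S100a1 0.46, S100g 0.50, Anxa7 0.061, Sparc 0.21 and Calb1 0.19. Relative to that median the sign turned for S100g alone of these (0.029), with S100a4 at -0.068, S100a1 at -0.0099, Anxa7 at -0.41, Sparc at -0.26 and Calb1 at -0.28. On the low-ratio arrays Anxa6 became -0.12, S100g 0.36, Anxa7 0.37 and Sparc 0.099. Within the shared day and lot S100a4 became 0.13, S100g 0.29, Nr3c1 -0.062 and Calb1 1.45. The second probe set of S100b gave -0.14, and a floor of 10 gave Anxa7 0.18. No paired analysis was possible because the diabetic arrays are 1 pool, and the number of a technical repeat shares nothing with that of a normal pool.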
